A study of Mus musculus with 12 samples.

Results

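Relative translational efficiency, the ratio of ribosome footprints to RNA of the same gene, was described in wild-type (WT) mouse thymocytes. Members were chosen by level alone: a gene row was kept when its mean count was at least 10 over the 3 WT RNA-seq libraries and at least 10 over the 3 WT footprint libraries, which gave 11859 of 55335 gene rows. The thymus is the organ in which T cells mature, and thymocytes are the developing T cells in it. The study made 3 RNA-seq and 3 footprint libraries from thymocytes of WT mice and as many from knockout (KO) mice that lack the miR-181a/b-1 pair, to locate functional miR-181 target sites; only the WT libraries enter the comparisons here. All mice were 6 weeks old and kept specific-pathogen-free, and their cells were passed through a strainer of 70 µm into buffered saline with cycloheximide at 0.1 mg/ml, which halts elongating ribosomes. The labels give total RNA as the source and a commercial ribosome profiling kit for both kinds of library, and name no strain, sex or sorting step.

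Ribosome profiling digests RNA that no ribosome covers and sequences the short protected fragments, so a footprint count follows the number of ribosomes on a coding sequence, while an RNA-seq count follows the amount of the transcript. Their ratio ranks genes by how heavily a transcript is loaded with ribosomes relative to other transcripts of the same cells; it has no absolute scale. Ribosome load is known to be set by 5′ leaders, upstream open reading frames, 3′ untranslated regions and the factors and microRNAs that bind a transcript, and a transcript held in the nucleus is not translated at all.

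Reads counted in genes ranged from 6273149 to 7091310 over the RNA-seq libraries and from 10590995 to 17859770 over the footprint libraries. Between 27.1% and 28.5% of the counted RNA-seq reads lay in genes, against 72.3% to 72.9% of the footprint reads, and 51.7% to 57.1% against 5.36% to 6.39% lay in no annotated feature. Thymocyte markers were present in both assays: the 12 listed markers, among them Rag1, Cd4 and Cd8a, were all members and summed to 13061 to 14750 CPM in RNA-seq and 26693 to 27988 CPM in footprints. In footprints Mir181a-1, in the deleted locus, had 166, 133 and 145 CPM on plain totals in the WT libraries and 0.460, 1.04 and 0.983 in the KO libraries, which checks the labels of the footprint libraries. The same row had 3.99, 3.63 and 0.987 CPM in WT RNA-seq against 2.32, 2.23 and 5.01 in KO, and checks nothing there. Replicates of a group correlated at r = 0.991 or more on log2 CPM, and differed by more than sampling noise. Across 7360 genes the deviations of each WT library from its group mean mirrored those of the KO library with the same number (r from -0.989 to -0.968), so the deposited counts, which the authors call adjusted, may not hold the spread between mice, and SDs and tests below measure the spread of the deposited values only.

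Over the 11859 genes the log2 ratio of footprints to RNA had a median of -0.00 and quartiles of -0.88 and 0.89. The 5% and 95% quantiles, -2.59 and 2.04, lay 24.6-fold apart, and the median SE of a gene's log2 ratio was 0.11. With edgeR's quasi-likelihood test, 9830 genes (82.9%) differed between the assays at an FDR under 0.05. A gene was called higher or lower in footprints when it also differed at least 2-fold: 2618 genes (22.1%) were higher, 2640 (22.3%) were lower, and 9987 (84.2%) had RNA-seq and footprint libraries that did not overlap. With plain library totals in place of TMM scaling, the split became 1972 higher and 3327 lower and the median of all genes moved to -0.24. CPM values here are counts relative to the TMM-scaled gene total of a library; they are not divided by transcript length, so they compare assays within a gene and not one gene with another. RNA reads can lie anywhere in a transcript while footprints lie mainly in its coding part, so a gene's ratio also depends on how much of its transcript is coding, which was not analysed here. Across genes the mean CPM of the 2 assays had a Pearson r of 0.80 on the log2 scale and a Spearman rho of 0.81, given as a description because genes are not independent replicates.

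**Figure D1:**
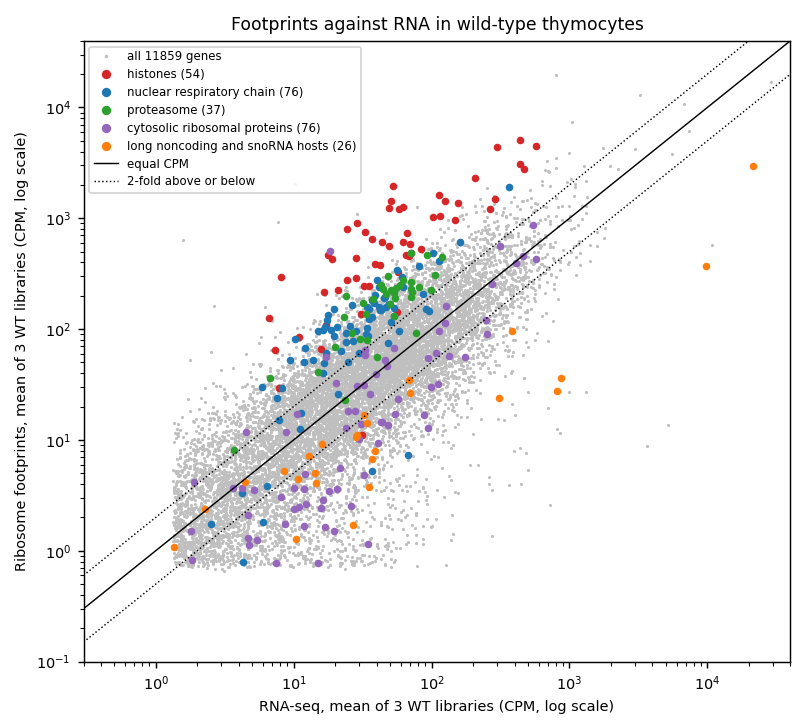
Mean footprint CPM against mean RNA-seq CPM of 3 WT libraries each, both on log scales, for 11859 genes (grey) with 5 gene lists in colour; the solid line marks equal CPM and the dotted lines a 2-fold difference. Histone, respiratory chain and proteasome genes lie mostly above the upper dotted line, and long noncoding transcripts mostly on or below the lower one.

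Of 10442 members that RefSeq types as protein-coding, 2396 (22.9%) were higher and 1834 (17.6%) lower, with a median log2 ratio of 0.10. Of 303 long noncoding RNAs, 8 were higher and 207 (68.3%) lower, with a median of -1.54. Small nucleolar RNAs (90 members, median -1.3) had 20 higher and 49 lower, and small nuclear RNAs (70 members, median 0.18) had 29 higher and 30 lower. Over all genes 22.1% were higher and 22.3% lower. Among 36 gene lists with at least 5 members, 13 had a median at least 1 above that of all genes and 4 a median at least 1 below it. The 4 low lists were mitochondrial rRNA and tRNA, long noncoding and snoRNA host transcripts, cytosolic ribosomal proteins and snoRNA rows. Members with the smaller mean count between 10 and 11, just inside the minimum, had a median of -0.26 (181 genes), and 223 genes just outside it had -0.43, in a fit with the minimum lowered to 1.

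**Figure D2:**
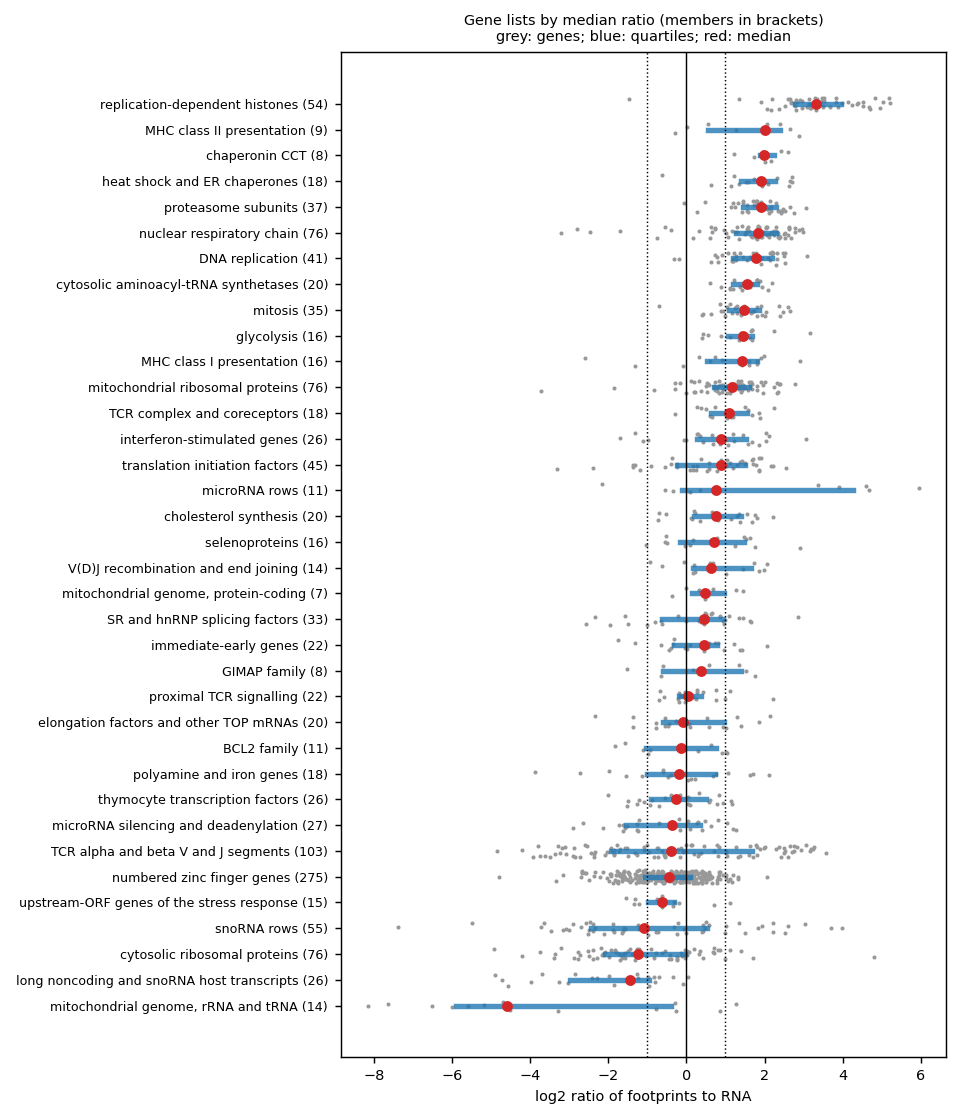
Log2 ratio of footprints to RNA for each gene (grey) in 36 lists, ordered by median (red) with quartiles (blue bars) and the number of members in brackets; the solid line is the median of all genes and the dotted lines mark 2-fold. Replication-dependent histones stand at the top with a median of 3.32 and mitochondrial rRNA and tRNA at the bottom with -4.6.

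Replication-dependent histone genes had the highest median of the 36 lists, 3.32. These genes supply the core and linker histones that package newly made DNA, and their mRNAs end in a stem-loop rather than a poly(A) tail. Of 69 rows, 54 were members, of which 53 were higher in footprints and 1 lower, against 22.1% and 22.3% of all genes. The quartiles were 2.79 and 3.95. Hist1h1c, a linker histone, had 383, 437 and 488 CPM in the 3 RNA-seq libraries and 5489, 5175 and 4465 CPM in the 3 footprint libraries, a log2 ratio of 3.53 (SE 0.12, edgeR FDR 2.74e-12). Hist1h3i, an H3 gene, went from 53.6, 44.0 and 60.7 CPM to 1872, 1964 and 2045 CPM, a log2 ratio of 5.22 (SE 0.12). In both genes the lowest footprint library lay far above the highest RNA-seq library, and the assays did not overlap in 84.2% of all genes. The medians of the families were 2.82 for 5 H1 genes, 3.59 for 12 H2A, 3.07 for 15 H2B, 4.32 for 10 H3 and 3.21 for 12 H4 genes. The lower member was Hist2h2be, with 27.3, 40.2 and 27.0 CPM in RNA-seq and 10.7, 13.9 and 8.90 CPM in footprints (log2 ratio -1.48, FDR 1.70e-06). Histone genes are near-identical copies of each other, and reads that align to several of them were set apart by the authors' counting, so the values of single copies are uncertain.

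Most genes of DNA replication and mitosis were also higher in footprints, where 22.1% of all genes were higher and 22.3% lower. Of 41 replication genes 34 were higher and none lower (median 1.79), and of 35 mitotic genes 27 were higher and none lower (median 1.47). The 6 subunits of the MCM helicase, which opens the double helix ahead of the replication fork, were all higher, with a median of 2.27. Mcm3 had 108, 109 and 134 CPM in RNA-seq and 657, 668 and 705 CPM in footprints (log2 ratio 2.53, FDR 8.64e-12). The highest of the list was Rfc4, a subunit of the clamp loader, at 3.09 (13.4, 15.0 and 14.2 against 109.6, 121 and 133 CPM), and its lowest Pold3, an accessory subunit of DNA polymerase delta, at -0.32. Among mitotic genes, Cdk1, the kinase that starts mitosis, had 46.8, 58.2 and 61.3 CPM against 304, 354 and 362 CPM (log2 ratio 2.61), and the kinesin Kif20a was highest at 2.65. Cenpa, the centromeric histone H3 variant, was the lowest mitotic gene at -0.69 and was not called, with 88.6, 98.6 and 91.5 CPM against 60.5, 60.9 and 50.3 CPM. The groups did not overlap in any of these 6 genes, nor in 84.2% of all genes. Top2a and Mki67, widely used as marks of dividing cells, had log2 ratios of 1.82 and 1.12; Mki67 fell short of 2-fold with plain library totals (0.88).

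Most genes of the large machines of protein folding and breakdown were higher in footprints, where 22.1% of all genes were higher and 22.3% lower. The chaperonin CCT folds actin and tubulin, and its 8 subunits were all higher in footprints, from 1.21 for Cct2 to 2.61 for Cct3. Cct3 had 125, 121 and 125 CPM in RNA-seq and 758, 767 and 739.7 CPM in footprints, and Cct2 had 228, 237 and 261 CPM and 571, 550.3 and 555 CPM; with plain library totals Cct2 fell just short of 2-fold (0.97). Among 18 heat shock and ER chaperones 16 were higher and none lower, with a median of 1.91. The ER members Pdia3, a disulfide isomerase, and Hspa5 (BiP) led with 2.71 each, while the cytosolic co-chaperone Dnaja1 was lowest at -0.62, with 71.5, 65.5 and 57.6 CPM against 46.6, 44.1 and 34.3 CPM. Of 37 proteasome subunits 34 were higher and none lower. The core particle (18 members, median 2.00) and the regulatory particle (19 members, median 1.81) had similar values. Psmb2, a core subunit, had 23.1, 23.2 and 26.1 CPM in RNA-seq and 194, 208 and 199 CPM in footprints (log2 ratio 3.05, FDR 1.03e-12). Psma3, another core subunit, was the exception with overlapping libraries, 23.3, 26.8 and 21.3 CPM against 23.8, 22.7 and 21.7 CPM (log2 ratio -0.06, FDR 0.606).

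The translation machinery itself was split. Cytosolic aminoacyl-tRNA synthetases, which charge tRNAs with amino acids, had 18 of 20 members higher and none lower (median 1.55), with Rars highest at 2.19 and Cars lowest at 0.60. Initiation factors varied by complex. The eIF3 scaffold (13 members, median 1.3) and the eIF2 and eIF2B group (10 members, median 1.22) were mostly higher, with 7 and 6 members called higher and 1 and none lower. The cap-binding eIF4 group (11 members, median -0.37) had 2 higher and 4 lower, against 22.1% and 22.3% of all genes. Eif3g had 28.7, 29.3 and 36.1 CPM in RNA-seq against 184, 177 and 188 CPM in footprints (log2 ratio 2.54), and Eif4a1, the RNA helicase of the cap-binding complex, 48.2, 37.1 and 43.8 CPM against 7.36, 8.36 and 9.0 CPM (log2 ratio -2.39, FDR 2.14e-10). The libraries of the 2 assays did not overlap for either gene, as for 84.2% of all genes, and lay in opposite orders.

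Cytosolic ribosomal proteins had a low median ratio as a list, while their summed CPM was near level. The members summed to 5413 to 5874 CPM in RNA-seq and 5002 to 5429 CPM in footprints. Of 91 rows 76 were members, with 4 higher and 42 (55.3%) lower, against 22.1% and 22.3% of all genes, and a median of -1.25. The large subunit (46 members, -1.33) and the small subunit (27 members, -1.3) had similar medians. Rplp0, a stalk protein of the large subunit, had 245, 248 and 269 CPM in RNA-seq and 93.1, 90.1 and 85.6 CPM in footprints, a log2 ratio of -1.5 (SE 0.08, edgeR FDR 1.75e-10). Its libraries did not overlap between the assays, as in 84.2% of all genes. Rpl13 was lowest at -4.93 and Rpl7a highest at 4.81, the latter with 23.4, 15.1 and 16.3 CPM against 712, 436 and 375 CPM. These genes have many processed pseudogenes, and reads with several alignments, 13.1% to 18.7% of RNA-seq and 17.7% to 18.5% of footprint reads, were not counted for any gene. Rps6, for example, kept only 0.901, 2.49 and 2.07 CPM in RNA-seq and 0.686, 0.55 and 1.23 CPM in footprints, with libraries that overlapped (FDR 0.00520); its log2 ratio of -1.27 became -1.0 without RNA-seq library 2 and was then no longer called. The 57 members with a named pseudogene row had a median of -1.38 and 35 (61.4%) lower, against -0.41 and 7 (36.8%) lower for the 19 members without one. Such a row carries the symbol of the gene followed by -ps. Pseudogenes under other names, such as Gm numbers, were not counted, so the 19 members may have pseudogenes too. Whether uncounted reads set these ratios was not tested. With a minimum mean count of 50 the list's median rose to -0.79 relative to all genes.

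Ribosomal protein and elongation factor mRNAs are known for a 5′ terminal oligopyrimidine (TOP) tract, a C at the cap followed by a run of pyrimidines, through which growth signals control their translation. The following windows, from RefSeq on GRCm38.p6, span 10 bases before to 20 bases from the annotated start of 6 such genes on the transcribed strand, and are shown because these genes carry the tract and still differ in ratio; capitals mark the tract, counted from the first C within 5 bases of the start.
Rpl27a (chr7:109519185-109519214, + strand): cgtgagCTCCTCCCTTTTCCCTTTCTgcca
Rpl15 (chr14:18270967-18270996, - strand): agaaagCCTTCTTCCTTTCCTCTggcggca
Eef1a1 (chr9:78481705-78481734, - strand): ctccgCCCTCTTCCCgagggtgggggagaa
Rplp2 (chr7:141447641-141447670, + strand): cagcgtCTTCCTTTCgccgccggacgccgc
Rack1 (chr11:48800350-48800379, + strand): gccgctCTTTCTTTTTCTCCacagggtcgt
Rpl7a (chr2:26910797-26910826, + strand): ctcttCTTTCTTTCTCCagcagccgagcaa

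The tracts of Rpl27a (20 pyrimidines) and Rpl15 (17) went with log2 ratios of -3.38 and -2.73, those of Rplp2 (9) and Rack1 (14), a scaffold protein of the small subunit, with -0.14 and 0.69, and that of Rpl7a (12) with 4.81. Pyrimidines before that C lengthen the unbroken run to 10 in Rplp2, 16 in Rack1 and 21 in Rpl7a. Rpl7a also has 13 named pseudogene rows, and its own row overlaps other genes in RefSeq. Whether either sets its ratio was not tested. Eef1a1, which delivers aminoacyl-tRNA to the ribosome, had a tract of 10 and went from 635, 707 and 721 CPM in RNA-seq to 250.5, 274 and 272 CPM in footprints (log2 ratio -1.37, FDR 7.29e-10). A TOP-like start was defined as a C within 5 bases of the annotated start followed by at least 4 bases that are each C or T, on the transcribed strand only. It was found in 21.2% of 27025 gene symbols with a promoter sequence, in 24.0% of 8472 protein-coding members and in 50% of 58 ribosomal protein members. Protein-coding members with it had a median of 0.06 and those without it 0.12, a difference of -0.05, and ribosomal protein members -1.15 and -1.57 (29 genes each). With the C at the annotated start itself the difference over protein-coding members was -0.16. Ribosomal protein members went the other way, with medians of -0.85 (14 genes with it) and -1.53 (44 without). Annotated starts need not be the ones used in thymocytes. Of 20 elongation factors and other TOP mRNAs 5 were higher and 3 lower (median -0.09), against 22.1% and 22.3% of all genes; Eef2, the translocase, had 1185, 1164 and 1359 CPM against 1345, 1294 and 1263 CPM, overlapping libraries and a log2 ratio of 0.07 (FDR 0.418).

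Nuclear genes of the mitochondrial respiratory chain were among the high lists. Of 76 nuclear members 61 were higher and 4 lower (median 1.84), against 22.1% and 22.3% of all genes. The medians of complexes I to IV and of ATP synthase lay between 1.59 and 1.99. Cox8a, a subunit of cytochrome c oxidase, had 19.7, 16.5 and 22.6 CPM in RNA-seq and 139, 154 and 165 CPM in footprints (log2 ratio 2.96, FDR 9.50e-12), and Ndufa5 of complex I was highest at 2.99. The 4 lower members were Cox7a2l, a factor of supercomplex assembly (-3.22), Atp5l (-2.80), Atp5g1 (-2.46) and Cox7c (-1.71). Cox7a2l had 71.8, 65.0 and 64.7 CPM in RNA-seq against 7.30, 6.78 and 7.67 CPM in footprints, the reverse order of its list. Its libraries did not overlap between the assays, as in 84.2% of all genes. Mitochondrial ribosomal proteins, which are encoded in the nucleus, had 43 of 76 members higher and 2 lower (median 1.17), with large-subunit and small-subunit medians of 1.16 and 1.19. Mrps28 was highest at 2.79, and Mrpl33 lowest of those above 20 CPM at -1.85.

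Only 7 of the 13 protein-coding rows of the mitochondrial genome were members, the other 6 being under the minimum in both assays. Of these, mt-Atp6, mt-Atp8, mt-Co2, mt-Co3 and mt-Nd4l had 0 reads in every WT library, and mt-Nd3 had at most 5. Whether their reads were lost in alignment or counting was not tested, so these counts do not give their expression. Of the 7 members 2 were higher, near the 22.1% of all genes, none lower, and the median was 0.48. Cytochrome b (mt-Cytb) and mt-Nd2 were the higher ones (1.28 and 1.45). For mt-Co1, a core subunit of cytochrome c oxidase, 786, 701 and 545 CPM in RNA-seq and 609.8, 727 and 690.1 CPM in footprints overlapped (log2 ratio -0.00, FDR 0.979). Mitochondrial rRNA and tRNA, which ribosomes do not translate, gave the lowest list (14 members, 1 higher, 9 lower): mt-Ti, a tRNA, had 998, 496 and 671 CPM against 2.12, 2.69 and 2.97 CPM (log2 ratio -8.14). mt-Rnr2, the large mitochondrial rRNA, still had a mean of 16848 CPM in footprints against 28927 in RNA-seq, so footprint libraries also held reads that came from RNA other than translated mRNA.

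**Figure D3:**
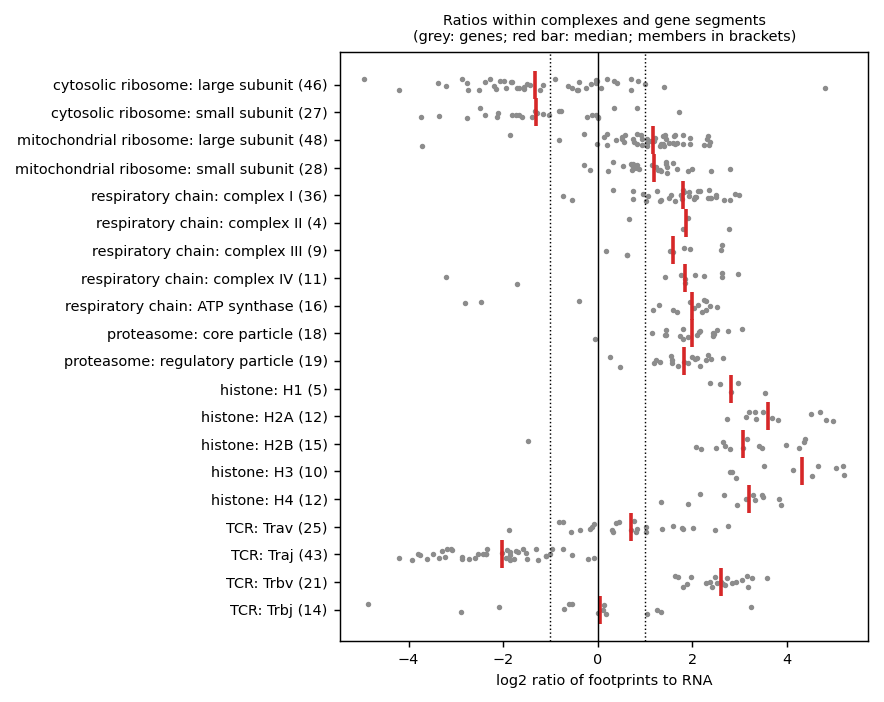
Log2 ratio of footprints to RNA for single genes (grey) within ribosomes, the respiratory chain, the proteasome, histone families and T-cell receptor segments, with the median as a red bar, the number of members in brackets, a solid line at 0 and dotted lines at 2-fold. Alpha-chain J segments (median -2.02) and beta-chain V segments (median 2.60) lie on opposite sides.

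Among the genes that define thymocytes, the T-cell receptor (TCR) complex and its coreceptors were high. Of 18 genes 11 were higher and none lower (median 1.08), against 22.1% and 22.3% of all genes. Cd3g, a signalling chain of the complex, had 312, 269 and 264 CPM in RNA-seq and 1416, 1219 and 1379 CPM in footprints (log2 ratio 2.25, FDR 2.24e-11). Cd4 had 983, 945 and 944 CPM against 2239.7, 2168 and 1960.4 CPM (1.15), and Cd8a 1311, 1370.2 and 1244 against 2205, 2279.9 and 2054 (0.74), which passed the FDR but not the 2-fold limit; with plain library totals Cd4 was at 0.91. Cd3e, at 1.04, sat on the limit and was no longer called without footprint library 1 or RNA-seq library 2 or 3 (0.92 to 0.99). In these 4 genes no footprint library fell as low as an RNA-seq library. The assays did not overlap in 84.2% of all genes. Kinases and adaptors that act directly below the receptor stayed near the median of all genes: 2 of 22 were higher and none lower, with quartiles of -0.18 and 0.38. Lck, the kinase that phosphorylates the CD3 chains, had 877, 842 and 947 CPM against 975, 967 and 938 CPM (log2 ratio 0.11, FDR 0.192), and Themis, a thymocyte selection protein, 1418, 1476 and 1059 against 1234, 1315 and 1338 (FDR 0.843); both overlapped between assays. The exceptions were the phosphatase Ptpn6 (SHP-1), with 118, 95 and 125 CPM against 564, 514 and 482 CPM (2.21), and the adaptor Lcp2 (SLP-76, 1.11).

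Recombination of the receptor genes is carried out by the RAG proteins and terminal transferase. Rag1 had 7171, 7060 and 6019.7 CPM in RNA-seq and 11206, 10444 and 10790 CPM in footprints, a log2 ratio of 0.68 (SE 0.10, FDR 1.07e-05), while Rag2 had 159.6, 167 and 132 against 519, 579 and 563 (1.86, SE 0.09). Dntt, the terminal transferase that adds bases at the joints, had 975, 991 and 1011 CPM against 3937, 3888 and 3869 CPM (1.97). All 3 genes were above in every footprint library, and the assays did not overlap in 84.2% of all genes. The 2 RAG genes, which act as 1 complex, differed by over 1 on the log2 scale. A test of that difference was not made, and the Rag2 row overlaps another gene in RefSeq. Over 14 genes of V(D)J recombination and end joining 6 were higher and none lower (median 0.64), against 22.1% and 22.3% of all genes. Dclre1c (Artemis) was lowest at -0.93.

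Receptor segments split by kind. V, D and J segments are joined in the genome of each thymocyte, and the V segment supplies most of the variable domain while a J segment is a short stretch next to the constant region. Of 21 beta-chain V segments all were higher, with a median of 2.60, and Trbv15 went from 17.4, 14.0 and 19.2 CPM in RNA-seq to 203, 203 and 198 CPM in footprints (log2 ratio 3.57, FDR 1.11e-12). Of 43 alpha-chain J segments none was higher and 38 lower (median -2.02), against 22.1% and 22.3% of all genes. Alpha-chain V segments (25 members, 9 higher, 1 lower, median 0.70) and beta-chain J segments (14 members, 4 higher and 3 lower, near the shares of all genes, median 0.05) lay between, with Trbj1-7 at -4.85 (22.8, 23.6 and 18.3 against 0.686, 0.794 and 0.716 CPM). The beta-chain constant genes Trbc1 and Trbc2 had 0.37 and 0.65, and the alpha-chain constant gene Trac 1.57. The minimum count removed many of these rows: 31 alpha-chain V rows were above it in footprints only and 17 alpha-chain J rows in RNA-seq only. The median of the whole list, -0.38 over 103 members, became 1.21 at a minimum of 50 and 0.23 at a minimum of 1, so no direction is given for the list as a whole.

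Few transcription factors of thymocyte development were higher in footprints: 2 of 26, against 22.1% of all genes, with 6 lower, near the 22.3% of all genes, and a median of -0.27. Ikzf2 (Helios) was lowest, with 326, 303 and 264 CPM in RNA-seq and 76.3, 65.7 and 79.3 CPM in footprints (log2 ratio -2.01, FDR 1.07e-10). E2f1, Bach2, Runx3, Runx1 and E2f2 were the other lower ones, from -1.52 to -1.10. Satb1, a chromatin organizer, had 6029, 5725 and 4955 CPM against 4007, 3604 and 3761 CPM (-0.56), and Tcf7 (TCF-1) 2047, 1895 and 1947 against 3224, 2998 and 2672 (0.60). Both passed the FDR within 2-fold, in opposite directions, and without overlap, as in 84.2% of all genes. The Id2 and Id3 genes, short proteins that bind E proteins, were the 2 higher members (1.16 and 1.13); Id2 was at 0.91 with plain library totals and 0.97 without RNA-seq library 3. Numbered zinc finger genes, most of which encode DNA-binding repressors, had 9 of 275 members higher and 75 (27.3%) lower (median -0.44). Their ratios ran from -4.80 for Zfp91, whose row overlaps other genes in RefSeq, to 2.06 for Zfp143.

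**Figure D4:**
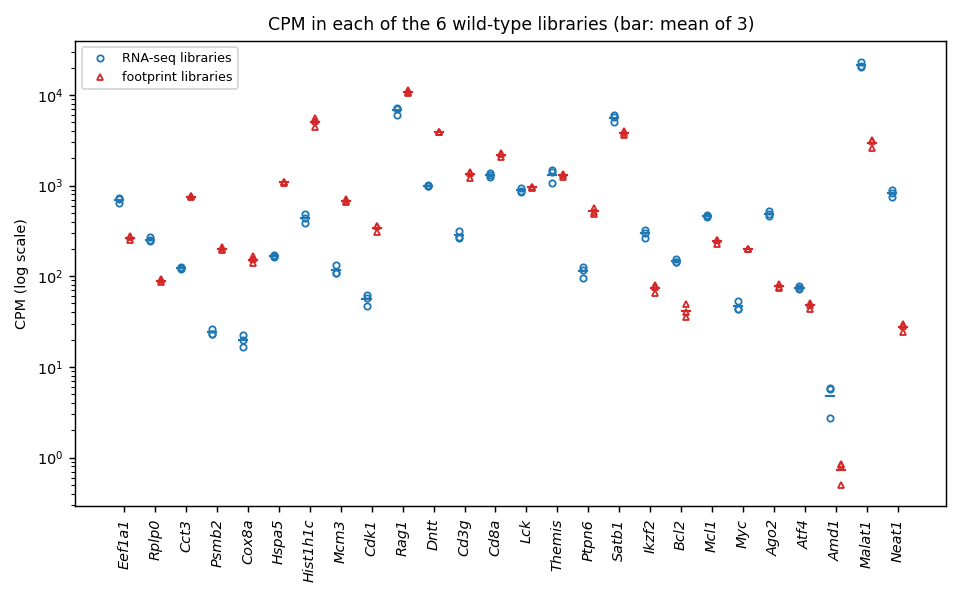
CPM on a log scale in each of the 3 RNA-seq libraries (blue circles) and 3 footprint libraries (red triangles) of WT thymocytes for 26 genes named in the text; bars are means of 3. Footprints lie above RNA for Cct3, Hist1h1c and Dntt, level with it for Lck and Themis, and below it for Ikzf2, Bcl2, Ago2 and Neat1.

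The BCL2 family decides survival during thymocyte selection. Of its 11 members 2 were higher and 3 lower, shares near the 22.1% and 22.3% of all genes (median -0.14, or 0.43 relative to all genes at a minimum count of 1). Bcl2, which protects from death, had 157, 143 and 143 CPM in RNA-seq and 40.7, 35.4 and 49.3 CPM in footprints (log2 ratio -1.83, FDR 6.79e-10). Bcl2l11 (BIM), its pro-death antagonist, was at -1.58 and Bcl2l1 (BCL-xL) at -1.10, and Mcl1 had 474, 455 and 446 against 249, 226 and 249 CPM (-0.93, under the 2-fold limit). The higher members were Bad (1.04) and Bax, which permeabilizes mitochondria and sat on the limit at 1.00, with 0.76 under plain totals and 0.87 to 1.0 without RNA-seq library 1 or 2 or footprint library 2 or 3. Among 22 immediate-early genes, induced within minutes of receptor signals, 4 were higher, a share near the 22.1% of all genes, and 2 lower (median 0.44). Myc had 43.2, 44.0 and 53.7 CPM in RNA-seq and 198, 198 and 197 CPM in footprints (log2 ratio 2.07, FDR 3.64e-11), and Egr3 the lowest ratio at -1.76.

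Metabolic lists held more higher than lower members, where 22.1% of all genes were higher and 22.3% lower. Glycolysis had 12 of 16 members higher and none lower (median 1.44), led by Gapdh with 20.3, 21.5 and 25.3 CPM against 185, 226 and 190.2 CPM (3.16), a gene with named pseudogenes. Cholesterol synthesis had 9 of 20 higher and none lower (median 0.76), with the isomerase Ebp at 2.21 and Insig1, which holds the pathway's regulator in the ER, lowest at -0.72. Selenoproteins, which recode a stop codon as selenocysteine, had 6 of 16 higher and 1 lower (median 0.70), with Gpx4 at 2.90 and Selenok the lower one at -1.02. Actb, cytoplasmic actin, had 3505, 2794 and 3392 CPM in RNA-seq and 13338, 12627 and 12873 CPM in footprints (2.00).

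Antigen presentation lists did likewise. MHC class I presentation had 9 of 16 members higher and 2 lower (median 1.41). B2m, the light chain of every class I molecule, had 289.9, 192 and 279 CPM against 1810, 1804 and 2065 CPM (2.90, FDR 6.79e-11), and H2-T22 25.4, 25.6 and 24.5 against 4.05, 4.82 and 3.27 (-2.60). MHC class II genes had 6 of 9 higher and none lower (median 2.02); Cd74, the invariant chain, had 108, 124 and 164 CPM in RNA-seq and 869, 969.6 and 1075 CPM in footprints (2.88). Class II genes are known from B cells, dendritic cells, macrophages and thymic epithelium, and their markers were in the same suspension. Macrophage and dendritic markers (9 of 10 rows members, 8 higher) summed to 85.7 to 99 CPM in RNA-seq and 327 to 359 in footprints. B-cell markers (6 of 8, 3 higher) summed to 14.9 to 20.3 and 49.3 to 63.1, and thymic epithelial markers (6 of 8, 5 higher and 1 lower) to 69.2 to 82.9 and 221 to 265. Erythroid markers (5 of 7, 1 higher) summed to 71.3 to 85.5 and 43.9 to 82.4, and those of fibroblasts and endothelium (6 of 9, 5 higher) to 203 to 207 and 265 to 318. No defining marker was at 0 in all 6 libraries. The share of each cell type in these ratios was not tested, and in such bulk samples fewer cells of a type and less RNA per cell cannot be told apart. Interferon-stimulated genes had 11 of 26 higher and 3 lower (median 0.89), from -1.70 for Mx1 to 3.06 for Isg15. The GIMAP GTPases of lymphocytes had 3 of 8 higher and 1 lower, against 22.1% and 22.3% of all genes. They ranged from -1.52 for Gimap5 to 1.75 for Gimap9.

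Some transcripts are known for translational control through their leaders. In upstream-open-reading-frame genes of the stress response, where ribosomes are caught ahead of the main frame until stress, 1 of 15 was higher and 4 lower (median -0.62), against 22.1% and 22.3% of all genes. Ppp1r15b, a subunit of the eIF2α phosphatase, had 281, 305 and 285 CPM in RNA-seq and 93.5, 108 and 96.5 CPM in footprints (log2 ratio -1.55, FDR 2.08e-10). Atf4, the main transcription factor of this response, had 78.2, 74.4 and 72.4 against 48.6, 51.1 and 43.3 (-0.65, not called), and its target Ddit3 (CHOP), a row that overlaps other genes, -1.32. Another row under the symbol Ddit3 had 0 reads in every WT library, and whether reads were lost between these rows was not tested. Gene counts do not separate footprints on upstream frames from those on the main one. Eprs, a tRNA synthetase in the same list, was the higher member at 1.12, or 0.87 with plain totals. Polyamine and iron genes, with frameshifts, upstream frames or iron-responsive elements, had 4 of 18 higher and 5 lower, near the shares of all genes (median -0.19, or 0.03 relative to all genes at a minimum count of 50). Amd1, the decarboxylase of polyamine synthesis whose leader encodes a stalling peptide, had 5.70, 5.91 and 2.71 CPM against 0.499, 0.855 and 0.818 CPM (-2.71, FDR 1.91e-06). Oaz1, the antizyme, was at -1.15 and the spermine synthase Sms at -3.87, the latter with 1.43, 1.53 and 1.43 CPM in footprints. Both genes have a named pseudogene row, and whether reads with several alignments set their ratios was not tested. Fth1, the ferritin heavy chain under an iron-responsive element in the leader, was near level, with 171, 161 and 188 against 188, 194 and 228 CPM (0.23), while Tfrc, the transferrin receptor, had 95.6, 107 and 92.9 against 181, 208 and 226 (1.06); Tfrc fell to 0.82 with plain totals and 0.98 without footprint library 3.

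Genes of the proteins through which microRNAs act were more often lower than higher. Argonaute proteins hold the microRNA, and TNRC6 proteins link them to the CCR4-NOT deadenylase, which shortens the poly(A) tail of a target. All 6 Argonaute and TNRC6 members were lower in footprints, with a median of -1.88. CCR4-NOT subunits (11 members, median 0.10) had none higher and 3 lower (27.3%), near the 22.3% of all genes. Ago2, the Argonaute that can cut its target, had 521, 456 and 484 CPM in RNA-seq and 81.5, 74.5 and 76.0 CPM in footprints (log2 ratio -2.65, FDR 2.00e-12), and Ago3 128, 130.5 and 102 against 15.5, 15.0 and 18.2 (-2.90). Dicer1, which cuts precursors, was at -1.26 and Drosha, which acts before it in the nucleus, at -0.18. Over the 27 members 3 were higher and 12 (44.4%) lower, and Xpo5, the exporter of precursors, was highest at 1.27. Every footprint library lay below every RNA-seq library for the Argonautes, and above for Xpo5. Such absence of overlap was found in 84.2% of all genes. SR and hnRNP splicing factors, many of which switch their own transcripts to untranslated isoforms, had 6 of 33 higher and 6 lower, near the 22.1% and 22.3% of all genes (median 0.46), from -2.57 for Hnrnpa3 to 2.85 for Srsf1.

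MicroRNA rows themselves were counted in the footprint libraries. A mature microRNA is a short RNA that guides silencing and is not translated. Of 1176 rows 11 were members, 5 of them higher and 1 lower, against 22.1% and 22.3% of all genes. Another 44 passed the minimum in footprints only and 18 in RNA-seq only. The mature sequences of the 5 higher rows follow, from RefSeq on GRCm38.p6 with the seed in capitals (bases 2 to 8), shown to identify these rows; the counts do not separate the arms of a hairpin, so no ratio belongs to 1 arm or seed, and the 5p arm is shown, for miR-128 the 3p arm.
miR-181a-5p (chr1:137966468-137966490, + strand): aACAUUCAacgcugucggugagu
miR-15a-5p (chr14:61632075-61632096, - strand): uAGCAGCAcauaaugguuugug
miR-16-5p (chr14:61631936-61631957, - strand): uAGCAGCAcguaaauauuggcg
miR-128-3p (chr9:112118644-112118664, - strand): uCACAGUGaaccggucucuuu
miR-142a-5p (chr11:87756867-87756887, + strand): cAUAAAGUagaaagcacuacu

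miR-15a-5p and miR-16-5p share the seed AGCAGCA and lie in 1 cluster, and the other seeds are distinct. Mir181a-1 had 3.75, 3.28 and 0.904 CPM in RNA-seq and 181, 145 and 157 CPM in footprints, a log2 ratio of 5.95 (SE 0.21, FDR 5.11e-12). Mir142, a microRNA of blood cells, had 30.8, 34.9 and 38.3 against 388, 334 and 359 (3.37), Mir15a 6.30, 5.64 and 6.71 against 141, 144 and 189.5 (4.66) and Mir16-1 2.25, 1.97 and 3.36 against 57.7, 58.1 and 70.9 (4.6). In these 4 rows the lowest footprint library was several times the highest RNA-seq library, and the assays did not overlap in 84.2% of all genes. Mir128-2 was at 3.91, and the lower row, Mir7-1, at -2.15. The median of the 11 rows relative to all genes, 0.77, became -0.18 at a minimum count of 1 and 3.29 at 50.

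Long noncoding and host transcripts gave the reverse. Of 26 members none was higher and 18 (69.2%) lower (median -1.44), against 22.1% and 22.3% of all genes. Malat1, a nuclear RNA of splicing speckles, had 23090, 20906 and 20427 CPM in RNA-seq and 2587, 3081 and 3200.1 CPM in footprints (log2 ratio -2.86, FDR 1.12e-11). Neat1, the scaffold of paraspeckles, had 819, 744 and 888 against 28.4, 24.3 and 29.6 (-4.90), and Mir17hg, the host of a microRNA cluster, was at -3.26. For these 3 transcripts each footprint library was below each RNA-seq library, and the assays did not overlap in 84.2% of all genes. Hosts of small nucleolar RNAs, spliced RNAs that reach the cytoplasm, included Gas5, with 68.2, 73.4 and 65.2 CPM against 33.9, 34.9 and 35.7 CPM (-0.99), and Snhg1, at -0.96. Small nucleolar RNAs were also listed by symbol, a smaller set than the 90 members that RefSeq types so. The highest ratio of those 90 was 6.91. The rows listed by symbol ranged from -7.37 for Snora57 to 3.99 for Snord49a (54.0, 32.4 and 54.1 against 739.6, 721 and 770.2 CPM). Of 55 such rows 12 were higher (21.8%, near the 22.1% of all genes) and 28 lower (50.9%).

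The extremes over all genes were dominated by RNA that is not translated and by histones. Among called genes with at least 50 CPM in an assay and a symbol other than a Gm number, a Rik clone or a pseudogene name, the 10 lowest ratios were those of 5 mitochondrial tRNAs (mt-Ti, mt-Tc, mt-Tl1, mt-Tq and mt-Tt, -8.14 to -5.59), Snora57, Snord32a, the spliceosomal Rnu12 (-6.51), AC123927.3 and the coding gene Rbm4 (-5.62). Rbm4, an RNA-binding splicing regulator, had 96.4, 99 and 84.4 CPM in RNA-seq and 1.87, 1.65 and 2.25 CPM in footprints; its row overlaps another gene in RefSeq, and whether reads were counted by strand is not stated in the labels or headers. The 10 highest were 7 histone genes, Mir181a-1, Rpl7a and CT010467.1 (5.25, 23.3, 29.7 and 33.0 against 1344, 965 and 982 CPM). Of 10442 protein-coding members 20.9% overlap another coding gene in RefSeq, against 28% of the 100 lowest and 17% of the 100 highest, and 2.34% have a named pseudogene row, against 16% and 6%. Genes named above whose rows overlap other RefSeq genes include Zfp91, Rfc4, Kif20a, Rag2, B2m, Pdia3, Tcf7 and Dclre1c. The effect of such overlaps on their ratios was not tested.

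Rows left out by the minimum also differed between the assays. A mean count of 10 was reached in RNA-seq only by 1687 rows, 227 of them protein-coding, and in footprints only by 1869 rows, of which 1051 are protein-coding, 414 pseudogenes, 76 V segments and 44 microRNAs. The footprint libraries were the deeper ones, so a count of 10 stands for a lower CPM there. Mir30c-1, with a mean of 29.2 CPM in footprints and 0.454 in RNA-seq (1213 and 10 reads over 3 libraries), and Mir26a-2, with 24.2 and 0.223 (1003 and 5 reads), were among the most abundant of the latter. Psmd10, a proteasome assembly chaperone counted with the regulatory particle, had 10.1 CPM in footprints and 1.28 in RNA-seq (421 and 28 reads). The coding gene Foxl2, a transcription factor of the ovary, had 34.9 CPM in footprints against 0.306 in RNA-seq (1402 and 7 reads), with an SD of 16.3 among the 3 footprint libraries. These rows carry no test.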

How the data were processed

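The authors deposited a table of gene counts for each assay, in whole numbers and named adjusted; what was adjusted, the genome build, the annotation and the strand setting are not stated in the labels or headers. Per the submitters' processing notes the tools were FastQC, Bowtie2 2.5.1, STAR 2.7.10a, HTSeq 2.0.3 and DESeq2 1.40.2. The 5 rows that htseq-count writes for reads outside genes stayed out of totals and tests: 1.38% to 3.65% of reads were ambiguous between genes, and shares without a feature or with several alignments are given above. The labels do not say which RNA-seq and footprint libraries share a mouse.

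The 6 WT libraries were fitted with edgeR 4.0.16 in R 4.3.3: assay as the only term, TMM factors (1.06 to 1.11 in RNA-seq, 0.917 to 0.923 in footprints), the quasi-likelihood test and Benjamini-Hochberg adjustment over 11859 genes. A gene was called at an FDR under 0.05 with a log2 ratio of 1 or more, or -1 or less. The SE is the log2 ratio divided by the square root of F. On simulated counts of 11859 genes, 99% of 100 genes set at a log2 ratio of 1.5 and 100% of 100 set at 3 were called in the right direction, with 0 false calls. The other genes were set at no difference, with the spread fitted to the deposited values. It therefore checks the procedure and does not measure false calls in the data. Lists are described by counts of called members and medians, with no test of the list.

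Of the gene IDs, 54587 matched a symbol with their version, 567 matched without it and 181 had none. Gene types, overlaps, starts and microRNA sequences came from RefSeq tables of GRCm38.p6, of which all 6 starts and 5 microRNAs shown were matched by symbol. Named genes were a fixed list of symbols, the highest and lowest ratio of each list above 20 CPM, and the 10 highest and 10 lowest ratios above 50 CPM among called genes, leaving out rows without a symbol and symbols that are Gm numbers, Rik clones or pseudogenes; the others in the text were chosen after their values were seen. The members, lists and rules were chosen with earlier results of these data known, and the division of lists into subunits and families was added after the counts were seen. Alternatives were plain totals, RLE size factors, DESeq2 1.42.0, all 12 libraries, glmTreat, other thresholds and minimum counts, a replicate block and the omission of each library. Protein length and the length of untranslated regions were not analysed here. The values of 1 marker gene are not reported here.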

Additional observations from a re-analysis of the deposited data

How the results depend on the processing

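Against the 5258 reported calls, DESeq2 made 5245 (5210 of them shared), RLE size factors 5243 (5214), all 12 libraries 5225 (5085), glmTreat 4214 (all shared) and plain totals 5299 (4612), which moved the higher share from 49.8% to 37.2%. Leaving out 1 library gave 5218 to 5321. A minimum count of 1 gave 8379 (4022 higher, 4357 lower) and no fold limit 9830 (4953 and 4877), by construction more genes. At a minimum count of 50, lists with a median at least 1 below that of all genes went from 4 to 2. The TOP-like difference over protein-coding members went from -0.05 to -0.16 with the C at the start itself. The cause of either change was not tested. The replicate numbers were not taken to pair RNA-seq with footprint libraries: the r of deviations was 0.159, 0.258 and -0.018 for same-numbered libraries and -0.328 to 0.149 for others, and library 3 did not correlate best with its own number. With the number as a block 5259 genes were called.

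Of the 121 named genes, the only ones checked for this, signs turned in 7 that were not called under any alternative, except Fth1 with no fold limit. With plain totals Azin1 went to -0.1249, Eef2 to -0.1672, Fth1 to -0.0104 and Lck to -0.13, and Eef2 to -0.0197 at a minimum of 50. Psma3 went to 0.0273 at a minimum of 1 and ranged from -0.1374 to 0.0295 without 1 library. Themis went to 0.063 at a minimum of 1 and ranged from -0.1596 to 0.0612 without 1 library. For mt-Co1 it was 0.0844 at a minimum of 1, 0.0083 with the block, and -0.1384 to 0.1036 without 1 library. With glmTreat, the named genes Bax, Cd3e, Eprs, Id2, Mki67, Oaz1, Rps6, Tfrc and mt-Tv were no longer called. Of 468 list medians, 7 changed sign, all at another minimum count. The planned relation to protein length was not run. Read depth limits low genes: 3 reads are 0.423 to 0.478 CPM in RNA-seq and 0.168 to 0.283 in footprints.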
